A study of Mus musculus with 6 samples.

Results

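The miR-30 family is a group of microRNAs (miRNAs) cut from 6 hairpin precursors, mir-30a, mir-30b, mir-30c-1, mir-30c-2, mir-30d and mir-30e. Members were chosen by name: every row of the count table whose mature miRNA carries one of the stems mmu-miR-30a, mmu-miR-30b, mmu-miR-30c, mmu-miR-30d or mmu-miR-30e. This gave 12 rows, and after rows of the same mature miRNA were merged, 11 strands out of 535 mature miRNAs. Of the 11 strands, 5 came from the 5′ arm of a hairpin (5p) and 6 from the 3′ arm (3p).

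Small RNA libraries had been made from kidneys of CD1 wildtype mouse embryos at embryonic day 15.5, to compare nephron progenitors (MNP, 3 libraries) with whole kidney (MWK, 3 libraries). The MNP samples were nephrogenic mesenchyme enriched for progenitors, released from intact kidneys by limited digestion and then depleted on magnetic beads of cells carrying CD140a, CD105, Epcam or Ter119. The MWK samples were the kidneys remaining after that digestion, and the study's description names minor contamination from renal stroma as a limit of the MNP isolation. Each replicate pooled the embryos of one litter, and both groups came from the same set of litters by the study's methods. RNA was purified with the miRNeasy Micro Kit for MNP and, by the study's methods, with the miRNeasy Mini Kit for MWK. The isolation and the kit both differed between the groups, so an effect of either and one of the group cannot be told apart. Of the 6 libraries, MNP6 and MWK6 could be placed in a group by name but not tied to a replicate.

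miRNAs guide Argonaute proteins to messenger RNAs, mainly through pairing of the seed, a short stretch near the 5′ end, and miRNAs are commonly grouped by that seed. One arm of a hairpin is usually retained as the guide and the other mostly degraded. The miR-30 family is abundant in kidney, and it is known there for roles in podocytes and, in frogs, in the formation of the pronephros.

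The total count per library, with 1 value per mature miRNA, was 393951 (MNP1), 436113 (MNP2) and 333850 (MNP6) in nephron progenitors and 349241 (MWK1), 360221 (MWK2) and 355848 (MWK6) in whole kidney. Values below are in this order of libraries and given as CPM, counts scaled to one common library size, with TMM, the scaling method of edgeR that leaves out the miRNAs that differ most. At these depths 3 counts, taken as the least that a library can show, equal 6.53 to 9.44 CPM. Without molecular identifiers in the reads, the floor covers only the error of counting. CPM of small RNA strands are not divided by length, and levels of different strands are compared below on that scale.

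Sequences of 7 of the 11 strands were matched in RefSeq (GRCm38.p6); mmu-miR-30b-5p, mmu-miR-30b-3p, mmu-miR-30d-5p and mmu-miR-30d-3p are named only. They are shown with the seed in capitals (bases 2 to 8) because it groups the strands, and because some strands that moved differently are close in sequence. The 3 matched 5p strands shared the seed GUAAACA:
mmu-miR-30a-5p: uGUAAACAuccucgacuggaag
mmu-miR-30e-5p: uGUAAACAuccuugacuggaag
mmu-miR-30c-5p: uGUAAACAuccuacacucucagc
The 4 matched 3p strands fell into 2 seeds, UUUCAGU and UGGGAGA:
mmu-miR-30a-3p: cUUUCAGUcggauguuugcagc
mmu-miR-30e-3p: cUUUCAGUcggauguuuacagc
mmu-miR-30c-2-3p: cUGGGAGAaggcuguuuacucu
mmu-miR-30c-1-3p: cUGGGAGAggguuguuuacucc
Counting from 1 at the 5′ end of the first-named strand, miR-30a-5p and miR-30e-5p differed at 1 base (C13U), and miR-30a-3p and miR-30e-3p also at 1 base (G18A). Between miR-30c-1-3p and miR-30c-2-3p there were 3 differences (G9A, U12C and C22U). How reads with a sequencing error were assigned between strands this close was not tested, so their counts are uncertain to that extent.

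The hairpins of mir-30a and mir-30e, printed from the same RefSeq table with both mature strands in capitals, show how the 2 arms of each lie around the loop:
mir-30a: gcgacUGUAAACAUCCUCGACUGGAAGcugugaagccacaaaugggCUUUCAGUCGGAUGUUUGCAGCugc
mir-30e: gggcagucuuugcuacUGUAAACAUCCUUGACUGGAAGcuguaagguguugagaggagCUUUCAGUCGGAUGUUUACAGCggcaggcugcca

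The 6 precursors lie in 3 pairs on the mouse genome (mm10), with positions as the count table gives them and genes from GENCODE. On chromosome 1, plus strand, mir-30a (23272269 to 23272339) overlapped no other annotated gene. The hairpin of mir-30c-2 (23291701 to 23291784) lay 19361 bases further on, inside the lincRNA gene Gm27028, an exon of which overlapped it. On chromosome 4, minus strand, mir-30c-1 (120769534 to 120769622) and mir-30e (120772606 to 120772697) were 2983 bases apart, both in an intron of the protein-coding gene Nfyc, which encodes a subunit of the transcription factor NF-Y. On chromosome 15, minus strand, mir-30b (68337415 to 68337510) and mir-30d (68341208 to 68341289) were 3697 bases apart. The gene Gm26621, a processed transcript, covered 16 of the 96 bases of mir-30b. The lincRNA gene Gm20732 spanned mir-30d, of which 9 of 82 bases also lay in the gene Gm37296. Each of these genes had an exon overlapping the hairpin, but how many bases lay in exons was not measured.

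The miR-30 family made up a smaller share of all miRNA counts in nephron progenitors than in whole kidney. The share was 3.89%, 3.76% and 3.72% in the MNP libraries and 8.78%, 9.04% and 7.60% in the MWK libraries. No nephron progenitor library came near the lowest whole kidney library. Summed over the 5p strands, the level was 36736, 34685 and 31787 CPM in the MNP libraries and 90401, 100568 and 77421 CPM in the MWK libraries. The means were 34403 ± 2487 and 89463 ± 11602 CPM (SD, n = 3 each), a log2 ratio of -1.38, or 2.6-fold less in nephron progenitors. With library totals in place of TMM, which moves the median log2 fold change of all miRNAs tested by 0.20, the log2 ratio of the 5p sum was -1.17. The summed 3p strands were at 977, 1043 and 841 CPM in MNP and 1762, 1990 and 1657 CPM in MWK, a log2 ratio of -0.92. In bulk samples such as these, fewer cells of a type and less RNA per cell cannot be told apart.

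Of the 11 strands, 6 were lower in nephron progenitors at an adjusted p of 0.05 or less in edgeR's quasi-likelihood test, and 0 were higher. Over all 525 miRNAs tested, 17.1% were lower and 19.4% higher in that test, 36.6% in either direction. The 6 were miR-30a-5p, miR-30a-3p, miR-30c-5p, miR-30c-2-3p, miR-30e-5p and miR-30b-5p, which is 4 of the 5 5p strands and 2 of the 6 3p strands. The count of 0 higher strands also held in DESeq2's Wald test and in limma-voom, and among the 11 strands 0 were higher at an unadjusted p under 0.05 in edgeR. In 8 of the 11 strands, all 5 of the 5p strands among them, the libraries of the 2 groups did not overlap in CPM. Over all miRNAs tested this held for 46.7%. Of the 8, only miR-30c-1-3p was higher in nephron progenitors, with 6 to 8 counts against 2 to 5 in whole kidney. With library totals, compared after the data had been seen, 7 of the 11 did not overlap, against 45.5% of all. miR-30d-5p was the strand whose groups then overlapped. The median log2 fold change was -0.81 over the 11 strands, -0.93 over the 5p strands and -0.04 over the 3p strands, against -0.01 over all miRNAs tested; the median of the 3p strands lies within the shift of 0.20 that library totals bring. Without MNP6 and MWK6, the libraries not tied to a replicate, 7 of the 11 strands were lower, against 15.6% of the miRNAs tested in those 4 libraries.

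**Figure D1:**
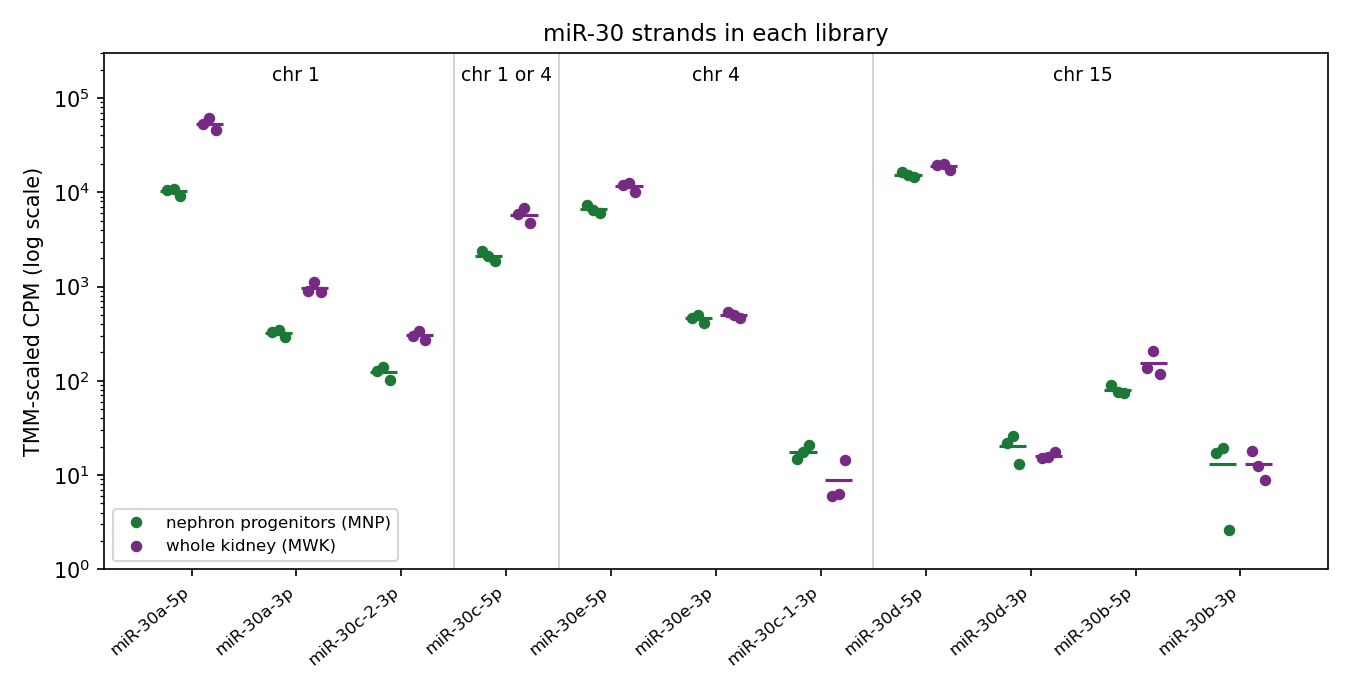
Level of each miR-30 strand in each library (points, TMM-scaled CPM on a log axis), with the mean of each group as a bar and strands ordered by the chromosome of their precursor. The MNP libraries of miR-30a-5p lay between 9219 and 10700.0 CPM and its MWK libraries between 45336 and 61006 CPM, while the groups of miR-30e-3p, miR-30d-3p and miR-30b-3p overlapped.

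The chromosome 1 pair, mir-30a and mir-30c-2, held the 2 largest log2 fold changes of the family, those of miR-30a-5p and miR-30a-3p. miR-30a-5p was at 10690.4, 10700.0 and 9219 CPM in MNP and 52990, 61006 and 45336 CPM in MWK. Each whole kidney library thus held several times the level of any progenitor library, with no overlap. The log2 fold change was -2.38 (standard error 0.15, 5.2-fold lower in nephron progenitors; adjusted p = 4.77e-08 in edgeR's quasi-likelihood test). By mean CPM this strand ranked 19 among the miRNAs tested in MNP, below miR-30d-5p at 14, and 4 in MWK, above miR-30d-5p at 11.

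The 3p strand of the same hairpin, miR-30a-3p, was at 330, 342 and 289 CPM in the MNP libraries and 890, 1111 and 885 CPM in the MWK libraries. It was low in every progenitor library, and the groups did not overlap. Its log2 fold change was -1.58 (standard error 0.20), with an adjusted p of 3.8e-05 in edgeR's quasi-likelihood test. miR-30c-2-3p, from the neighbouring hairpin, was at 128, 142 and 102 CPM in MNP and 301, 340 and 269 CPM in MWK. Again every whole kidney library was above every progenitor library. The log2 fold change of miR-30c-2-3p was -1.28 (standard error 0.23; adjusted p = 0.000652 in edgeR's quasi-likelihood test). The strands that can come only from chromosome 1 (miR-30a-5p, miR-30a-3p and miR-30c-2-3p) summed to 11148, 11184 and 9610 CPM in MNP and to 54180, 62458 and 46490 CPM in MWK, 5.11-fold less in nephron progenitors.

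miR-30c-5p is the same mature sequence from 2 hairpins, mir-30c-1 on chromosome 4 and mir-30c-2 on chromosome 1, so its reads cannot be assigned to either locus. The table lists nearly the same counts under both, for example 975 and 977 in MNP1, or 1943 and 1946 in MWK1, and the higher was used. Its levels were 2405, 2084 and 1876 CPM in MNP and 5850, 6734 and 4720 CPM in MWK. The progenitor libraries were all lower than the whole kidney libraries. Its fold change on the log2 scale, -1.44 (standard error 0.18; adjusted p = 3.75e-05 in edgeR's quasi-likelihood test), lay between those of miR-30a-5p and miR-30e-5p.

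The chromosome 4 pair, mir-30e and mir-30c-1, was less uniform. miR-30e-5p was at 7321, 6525 and 5987 CPM in MNP and 12007, 12608 and 10152 CPM in MWK. The groups did not overlap, though they lay closer together than those of miR-30a-5p, from which it differs by a single base. On the log2 scale the difference was -0.81 (standard error 0.15; adjusted p = 0.000897 in edgeR's quasi-likelihood test). miR-30e-3p, its partner on the other arm, was at 465, 497 and 412 CPM in MNP and 532, 504 and 462 CPM in MWK. These ranges overlapped. The log2 fold change was -0.12 (standard error 0.19; adjusted p = 0.682 in edgeR's quasi-likelihood test) and turned to 0.08 with library totals as the scaling. miR-30c-1-3p was rare, with 6, 8 and 8 counts in MNP and 2, 2 and 5 counts in MWK. Its MNP libraries were all above its MWK libraries, but by few counts, and the log2 fold change of 0.94 (standard error 0.56) had an adjusted p of 0.235 in edgeR's quasi-likelihood test. Strands that can come only from chromosome 4 summed to 7801, 7039 and 6421 CPM in MNP and to 12546, 13118 and 10629 CPM in MWK, 1.71-fold less in nephron progenitors.

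On chromosome 15 the abundant strand was miR-30d-5p, at 16229, 15299.7 and 14631 CPM in MNP and 19415, 20015 and 17096 CPM in MWK. The lowest whole kidney library lay only a little above the highest progenitor library. The log2 fold change was -0.29 (standard error 0.13; adjusted p = 0.115 in edgeR's quasi-likelihood test), and -0.09 with library totals, where MWK6 lay below MNP1 and MNP6. In the 4 libraries other than MNP6 and MWK6 it was -0.35, with an adjusted p of 0.032 in edgeR's quasi-likelihood test, so the call of miR-30d-5p rests on which libraries enter.

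miR-30b-5p, from the hairpin next to mir-30d, was far rarer than miR-30d-5p, with 37, 35 and 28 counts in MNP and 46, 65 and 40 counts in MWK. In CPM this was 91.1, 76.2 and 73.6 in MNP and 138, 205 and 117 in MWK. The groups did not overlap, and MWK2 stood above the other libraries. The log2 fold change of miR-30b-5p was -0.93 (standard error 0.27; adjusted p = 0.0166 in edgeR's quasi-likelihood test). Without MWK2 it was -0.67 with an adjusted p of 0.11 in edgeR's quasi-likelihood test, so the call rests on that library. The 3p strands of both hairpins were close to the floor, miR-30d-3p at 5 to 12 counts and miR-30b-3p at 1 to 9 counts per library. Their groups overlapped, and a difference was not detectable at this depth (log2 fold changes of 0.36 and 0.04, standard errors 0.46 and 0.64), the sign of the second turning with limma-voom and when MNP1, MNP2 or MWK6 was left out. The 4 strands of chromosome 15 summed to 16359, 15422 and 14720 CPM in MNP and to 19586, 20248 and 17239 CPM in MWK, 1.23-fold less in nephron progenitors. As a share of the tested counts of each library, without TMM, they made up 1.69%, 1.62% and 1.68% in MNP and 1.87%, 1.79% and 1.66% in MWK, and these groups overlapped.

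**Figure D2:**
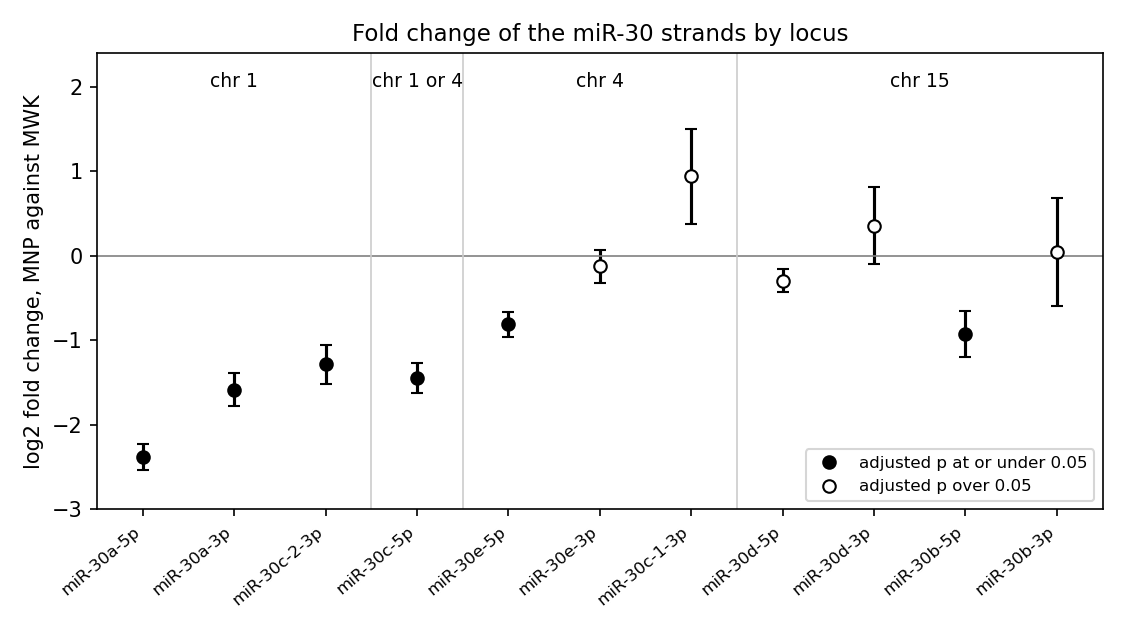
Log2 fold change of each miR-30 strand, nephron progenitors against whole kidney, with its standard error as a bar and strands grouped by chromosome (n = 3 libraries a group). Filled points have an adjusted p of 0.05 or less in edgeR's quasi-likelihood test; all 3 strands of chromosome 1 lay at -1.28 or lower, miR-30e-3p, at -0.12, turned to 0.08 with library totals, and the sign of miR-30b-3p, at 0.04, turned when MNP1, MNP2 or MWK6 was left out.

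The family therefore had a different make-up in the 2 kinds of sample. In every progenitor library miR-30d-5p was the most abundant strand, followed by miR-30a-5p, miR-30e-5p and miR-30c-5p. In every whole kidney library miR-30a-5p came first, then miR-30d-5p, miR-30e-5p and miR-30c-5p. miR-30a-5p made up 29.1%, 30.8% and 29.0% of the 5p counts in MNP and 58.6%, 60.7% and 58.6% in MWK. The share of miR-30d-5p was 44.2%, 44.1% and 46.0% in MNP and 21.5%, 19.9% and 22.1% in MWK. Neither pair of ranges overlapped, and the distance between the groups was many times the spread within them. miR-30e-5p held 19.2% ± 0.637 in MNP and 12.98% ± 0.391 in MWK (SD, n = 3 each). The share of miR-30c-5p was 6.15% ± 0.346 in MNP and 6.42% ± 0.303 in MWK, and its groups overlapped. miR-30b-5p stayed under 1% in every library, at 0.233% ± 0.0141 and 0.169% ± 0.0297. These shares add up to the whole within each library, so they are not independent of each other.

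**Figure D3:**
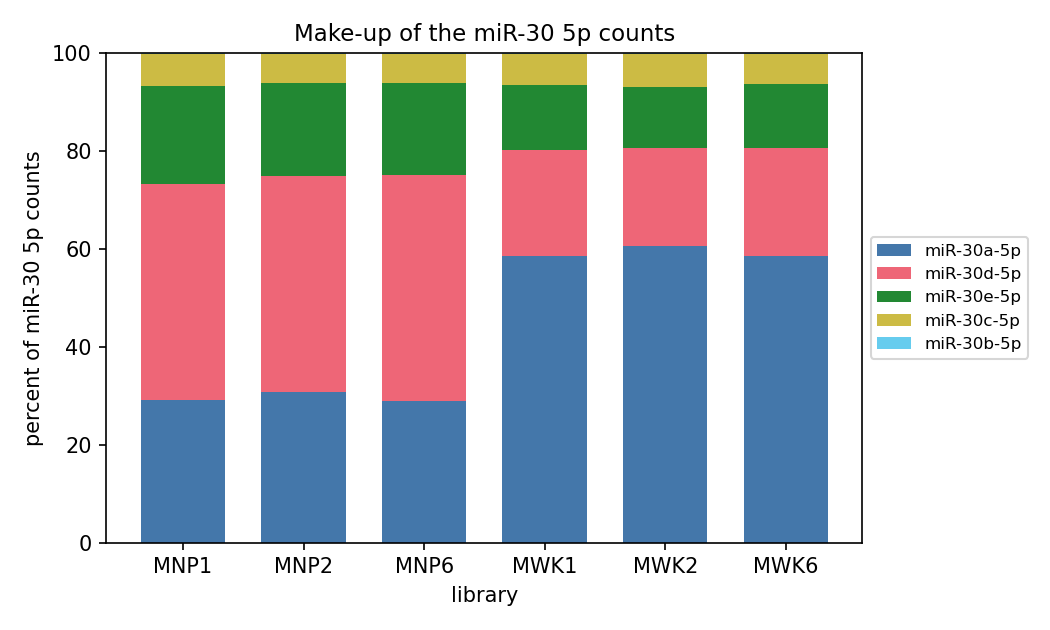
Share of each 5p strand in the summed miR-30 5p counts of each library (stacked bars, percent; miR-30b-5p, at under 1%, is too thin to see). miR-30d-5p was the largest part in the MNP libraries (44.1% to 46.0%) and miR-30a-5p in the MWK libraries (58.6% to 60.7%).

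In TMM-scaled CPM the difference between the groups was mostly miR-30a-5p. The summed 5p level was 55061 CPM higher in whole kidney, and miR-30a-5p alone made up 77.9% of this difference. miR-30e-5p made up 9.04%, miR-30c-5p 6.62%, miR-30d-5p 6.28% and miR-30b-5p 0.133%. With library totals, again compared after the data had been seen, the share of miR-30a-5p was 83.02%, that of miR-30e-5p 7.99% and that of miR-30d-5p, whose groups then overlapped, 2.21%.

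Among strands of lower abundance, the order was miR-30e-3p (458 ± 42.5 CPM), miR-30a-3p (320.3 ± 27.7), miR-30c-2-3p (124 ± 19.9) and miR-30b-5p (80.3 ± 9.44) in MNP. In MWK miR-30a-3p (962 ± 129 CPM) stood before miR-30e-3p (499 ± 35.4), followed by miR-30c-2-3p (303 ± 35.6) and miR-30b-5p (153 ± 45.7). Neighbours in these orders did not overlap across the libraries of a group. miR-30d-3p, miR-30c-1-3p and miR-30b-3p were the least abundant in both groups, with overlapping libraries in MNP, and in MWK miR-30b-3p overlapped the other two.

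Ratios of 2 strands within a library do not depend on how libraries are scaled. All 10 pairs of 5p strands were compared between the groups, with an exact two-sided permutation test for each, which cannot go below p = 0.1 with 3 against 3 libraries. The ratio of miR-30a-5p to miR-30d-5p was 0.659, 0.699 and 0.630 in MNP and 2.73, 3.05 and 2.65 in MWK. It was below 1 in every progenitor library and above 1 in every whole kidney library, a difference of -2.08 on the log2 scale. The ratio of miR-30a-5p to miR-30e-5p, 1 base apart, was 1.46, 1.64 and 1.54 in MNP and 4.41, 4.84 and 4.47 in MWK (log2 difference -1.56). Against miR-30c-5p, miR-30a-5p was at 4.45, 5.13 and 4.91 in MNP and at 9.06, 9.06 and 9.61 in MWK (log2 difference -0.94). Relative to each of these partners, miR-30a-5p was lower in every progenitor library than in any whole kidney library. The ratio of miR-30d-5p to miR-30e-5p went the other way, at 2.22, 2.34 and 2.44 in MNP and 1.62, 1.59 and 1.68 in MWK (log2 difference 0.52). In 9 of the 10 pairs the groups did not overlap, each with an exact two-sided p = 0.1 (0.111 after Benjamini-Hochberg adjustment over the 10 pairs), a threshold of 0.05 being out of reach in this design. The exception was miR-30b-5p to miR-30e-5p, with an exact two-sided p = 1.0. The 10 pairs are built from only 5 strands and are not separate observations. Over all pairs of the 459 tested miRNAs with counts in every library, 46.8% of ratios did not overlap between the groups.

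The balance of the 2 arms of a hairpin was compared in the same way, as the ratio of the 5p to the 3p strand with a pseudocount of 1 count on each. For mir-30a, mir-30b, mir-30d and mir-30e the 5p strand was the main one, with 79.5% to 99.9% of the counts of its pair in every library. miR-30c-5p also outnumbered each of its 3p partners, but its reads cannot be divided between mir-30c-1 and mir-30c-2. For mir-30a the ratio was 32.2, 31.1 and 31.6 in MNP and 59.4, 54.7 and 51.0 in MWK, a log2 difference of -0.80. The 5p strand of mir-30a was thus less dominant over its 3p strand in every progenitor library. For mir-30e the ratio was 15.7, 13.1 and 14.4 in MNP and 22.4, 24.9 and 21.9 in MWK (log2 difference -0.68), again without overlap. The ratio of miR-30c-5p to miR-30c-2-3p, at 18.5, 14.5 and 17.9 in MNP and 19.3, 19.6 and 17.4 in MWK, overlapped (log2 difference -0.15). For miR-30c-5p to miR-30c-1-3p the groups did not overlap, but the values are left out. They rest on 2 to 8 counts of the 3p strand, under the floor in MWK1 and MWK2, and miR-30c-5p is shared between both hairpins. For mir-30d and mir-30b the groups overlapped. Of these 6 ratios, 3 did not overlap between the groups, all lower in nephron progenitors (exact two-sided permutation test, p = 0.1 each, the smallest possible, and 0.2 after adjustment over the 6). Among all 137 miRNA names with both arms tested, which include mir-30a, mir-30b, mir-30d and mir-30e, the ratio did not overlap in 26.3%. With so few hairpins, and 1 of the 3 resting on a rare strand, nothing is read from the count itself.

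3 further ratios between 3p strands were chosen after values had been seen and are given as a description, with a pseudocount of 1 count on each strand. miR-30a-3p to miR-30e-3p was 0.711, 0.690 and 0.703 in MNP and 1.67, 2.2 and 1.91 in MWK, crossing 1 like the ratio of miR-30a-5p to miR-30d-5p. The values of miR-30c-2-3p to miR-30c-1-3p are left out, since miR-30c-1-3p had 2 counts in MWK1 and MWK2, under the floor of 3. Within chromosome 1, miR-30c-2-3p to miR-30a-3p was 0.393, 0.418 and 0.360 in MNP and 0.340, 0.308 and 0.306 in MWK. This difference was much smaller (0.29 on the log2 scale), but the groups did not overlap.

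The search for the seed of the matched 5p strands in other miRNAs covered the 440 of 535 counted mature miRNAs that have a sequence in the RefSeq table. Outside the family, 1 of those carried it, miR-384-5p:
mmu-miR-384-5p: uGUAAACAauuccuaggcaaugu
It had 2, 2 and 4 counts in MNP and 4, 1 and 0 counts in MWK, near the floor, with overlapping groups. miR-6958-5p, which shares UGGGAGA with the 3p strands of mir-30c-1 and mir-30c-2, was not among the counted miRNAs.

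Lists of miRNAs known from other cell types were examined beside the family, and they differed in how many members passed the threshold. Over all 525 miRNAs tested, 17.1% were lower and 19.4% higher, the shares to set beside each list. Of 9 miRNAs listed for kidney epithelium, 8 were counted and 7 were lower in MNP at an adjusted p of 0.05 or less in edgeR's quasi-likelihood test. Their summed level was 1078, 1213 and 1151 CPM in MNP and 26215, 27753 and 23397 CPM in MWK. By group mean the most abundant was miR-200a-3p in MWK and miR-192-5p in MNP, though miR-204-5p stood above miR-192-5p in MNP6 (588 against 444 CPM). miR-141-3p had 0 counts in all 3 MNP libraries against 11, 14 and 8 in MWK. miR-204-5p, found in tubules, was not past the threshold. For endothelium, both listed strands were lower, with a sum of 418, 595 and 578 CPM in MNP and 20127, 21306 and 18172 CPM in MWK, most of it miR-126a-3p. The isolation removed cells carrying Epcam, a marker of epithelium, and CD105, a marker of endothelium, besides those carrying CD140a or Ter119. Whether the depletion set the levels of any list was not tested.

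Of 6 erythroid miRNAs, 5 were counted and 5 lower, with miR-451a the most abundant in MWK and miR-486a-5p in MNP, and a sum of 529, 401 and 271 CPM in MNP and 1846, 1826 and 953 CPM in MWK. miR-486a-5p and miR-486b-5p hold identical values in the table, so this list counts one signal under 2 names. Of 6 leukocyte miRNAs, 4 were counted and 0 passed the threshold. Their sum was 126, 135 and 52.5 CPM in MNP and 87.2, 101 and 61.4 CPM in MWK. By group mean the most abundant was miR-142a-3p in MNP and miR-142a-5p in MWK. In MNP6 miR-142a-3p was the lower of these (15.8 against 26.3 CPM), and in MWK6 both had 9 counts. For stroma and smooth muscle, 5 of 5 were counted and 2 were lower, miR-143-3p and miR-145a-5p. Over all miRNAs tested, 17.1% were lower and 36.6% past the threshold in either direction. With so few strands nothing is read from this count. All 5 together summed to 33775, 45265 and 46045 CPM in MNP and 73656, 85306 and 70971 CPM in MWK, mostly miR-143-3p. The other strands of this list, miR-199a-5p, miR-199a-3p and miR-214-3p, did not pass the threshold and had log2 fold changes of 0.40, 0.23 and 0.17. The part of these cell types in the miR-30 differences was not tested. Messenger RNAs that define nephron progenitors, such as Six2, are not measured by small RNA libraries.

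The miRNAs whose pattern over the 6 libraries was most like that of the miR-30 5p strands were found by Pearson correlation of log2 CPM with the mean centred profile of the 5p strands, among 278 miRNAs outside the family with a mean of at least 50 CPM over all 6 libraries. They were miR-194-5p (r = 0.996), miR-28a-3p (r = 0.993), miR-322-5p (r = 0.993), miR-192-5p (r = 0.992) and miR-6240 (r = 0.990). All libraries share the group difference, which sets most of such a correlation, and 49 of the 278 had an r of at least 0.9. miR-192-5p, which was 476 ± 35.8 CPM in MNP and 2058 ± 396 CPM in MWK, and miR-194-5p, at 33.0 ± 3.45 and 100.3 ± 23.8 CPM, are also on the epithelial list. miR-194-5p was under 50 CPM in every MNP library and reached that mean through the MWK libraries. miR-322-5p was at 59.1, 65.3 and 44.7 CPM in MNP and at 274, 327 and 213 CPM in MWK, a log2 fold change of -2.25, near that of miR-30a-5p.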

How the data were processed

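Total RNA of the 3 MNP and 3 MWK samples had been made into libraries with the NEBNext Multiplex Small RNA kit. Per the study's methods, adapters were removed by BBDuk, the mm10 alignment was made by Bowtie2 (2.2.3 in the submitters' processing notes), and miRDeep2 quantified the known miRNAs of miRBase. The authors deposited expected counts, not normalized, for each pair of mature miRNA and precursor, in 792 rows, 3 of which hold fractions. The planned test assumed whole counts, so the expected counts were rounded first.

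Where a mature miRNA had several rows, each library's highest count was used. Tested were miRNAs whose counts added up to more than 10 in the 6 libraries. edgeR 4.0.16 (R 4.3.3) gave TMM scaling and the quasi-likelihood test, with Benjamini-Hochberg adjustment over all 525 miRNAs tested and a threshold of 0.05. Standard errors were derived from each log2 fold change and its F statistic, as their ratio after taking the square root of F. Ratios were tested with exact two-sided permutation tests in scipy 1.17.1. For correlations, log2 CPM had a prior count of 2. The steps were tested on simulated data. Sequences were copied from RefSeq (GRCm38.p6), and figures drawn with matplotlib 3.10.9.

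Columns were assigned to groups by their names, and 2 of the 6 carry no replicate number of the labels. The miRNAs named are all miR-30 strands, other miRNAs with the seed of the 5p strands, the 5 most alike in pattern, and the most abundant strand over both groups and any strand at 0 in each marker list; miR-204-5p, miR-486a-5p, miR-486b-5p, miR-142a-5p, the named stromal strands, miR-6958-5p, the 3 ratios between 3p strands and the shares of ratios over all miRNAs were chosen after values had been seen. The members and lists were chosen with earlier results of these data known. Alternatives were DESeq2 1.42.0, limma-voom (limma 3.58.1), 3 other scalings, 2 other filters, sums over rows, other pseudocounts, a replicate block, and the removal of single libraries.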

Additional observations from a re-analysis of the deposited data

How the results depend on the processing

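The 6 lower miR-30 strands were also the 6 lower ones under DESeq2's Wald test, limma-voom, no filter on low counts, the stricter filter given below, each other scaling and sums over rows. Without MWK2 the number was 5, because miR-30b-5p was at -0.67 (adjusted p = 0.11 in edgeR's quasi-likelihood test; 0.0109 to 0.11 over its alternatives), and with any other single library left out it was 6. The count of miRNAs past the threshold was 120 with more than 10 counts in every library, where 260 miRNAs were tested, against 192. That filter left 8 of the 11 strands. The log2 ratio of the summed 5p strands was -1.17 with library totals, against -1.38. Directions turned for 2 strands that did not pass the threshold. For miR-30b-3p the log2 fold change was -0.23 in limma-voom and from -0.38 to 0.45 with each library left out, and for miR-30e-3p it was 0.079 with library totals; the cause was not tested. With sums over rows, which count miR-30c-5p under both of its hairpins, the difference in share was -27.8 for miR-30a-5p and 22.3 for miR-30d-5p, in percentage points, against -29.6 and 23.6.

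A replicate block by number, fitted to the 4 numbered libraries, gave 158 miRNAs past the threshold, against 134 in the same libraries without the block, and 7 miR-30 strands were lower in either fit. The added strand was miR-30d-5p, at -0.35 with an adjusted p of 0.0466 with the block and 0.032 without it in edgeR's quasi-likelihood test (0.032 to 0.631 over its alternatives). By the study's methods both groups came from the same litters, so a library of one group would have a partner from its litter in the other. Neither the labels nor the methods say that equal numbers mark such partners. The differences between replicates 1 and 2 of the groups correlated with r = 0.0394 over the 525 miRNAs. This covers 4 libraries and does not settle whether the numbers pair the samples. MNP6 and MWK6 also share a number, but one that no sample label carries, and entered neither the block nor this correlation. The chi-square of replicate pairs against counting noise, divided by its degrees of freedom, was 20.6 to 55.0 in MNP and 2.90 to 8.82 in MWK. Separate litters differ in more than counting, so no conclusion is drawn from these values. Depth limits miR-30c-1-3p, miR-30d-3p and miR-30b-3p, which had 12 counts or fewer in every library.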
